A study of Mus musculus with 47 samples.

Results

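Loss of Aire in mice that already carried a deletion of Eed in thymic epithelium was read by bulk RNA-seq of medullary thymic epithelial cells (mTECs) with low MHC class II (mTEClo). The comparison set 3 AireEEDdKO libraries against 4 EEDcKO libraries, which are 7 of the 47 libraries of the series and 7 of the 24 in the neonatal count table. They were chosen by the fraction, age and genotype in their labels, with no use of a measured value. Of 55471 listed genes, 20196 had enough reads to be tested.

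All mice were C57BL/6. Both groups carried a floxed Eed gene that was deleted by Cre recombinase driven by Foxn1, which is active in thymic epithelium, so the Eed deletion was common to both by genotype and the added Aire knockout was the labelled difference between them. The cells were sorted from digested thymus as DAPI-CD45-EpCAM+Ly51- cells with low MHC class II. EEDcKO replicate 1 came from 2 to 3 day old mice and replicate 2 from 1 day old mice, both pooled from males and females, replicate 3 from 6 day old females and replicate 4 from a 4 day old pool of both sexes. AireEEDdKO replicate 1 was female and 4 days old, replicate 2 male and 6 days old and replicate 3 male and 4 days old. EEDcKO replicates 1 and 2 were therefore younger than every AireEEDdKO library, and in the labels they also carry earlier running numbers than the other 5 libraries. Whether that numbering marks a separate preparation is not given, and age and numbering cannot be told apart. A further fit therefore left out EEDcKO replicates 1 and 2. It is named below by the libraries then compared, those aged 4 to 6 days, while the groups not compared stayed in it at all their ages. Values from that fit are given beside the calls they end. Neonatal mTEClo of Ctrl mice (n = 3, 1 to 3 days old) served as a reference, and no mTEClo library of Aire-deficient, EED-sufficient neonates entered this work, so an interaction of Aire with EED could not be tested in mTEClo. Neonatal mTEChi came from mice 1 to 6 days old. Adult mTEClo came from WT mice of both sexes at 4 to 5 weeks and from male AireKO mice at 5 to 6 weeks. The labels do not say how many animals were pooled, and p-values measure the spread between these libraries.

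Aire is a nuclear protein of mTECs that raises the transcription of many genes otherwise restricted to peripheral tissues, whose products are then shown to developing T cells. EED belongs to the core of PRC2, a Polycomb repressive complex that places the repressive mark H3K27me3 on histone H3. mTEClo hold progenitors and immature cells together with cells that have passed through the Aire-expressing stage, among them the mimetic cells, which take on parts of the expression programme of muscle, tuft, goblet and other peripheral cells. In the mature fraction, mTEChi, Aire and costimulatory molecules are more abundant. mTECs are also known to keep a tonic interferon response, in which secreted interferons bind receptors, JAK kinases activate STAT transcription factors, and these with IRF9 switch on a large group of interferon-stimulated genes.

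Total counts were 2774069 to 4650379 in EEDcKO and 3214743 to 4817418 in AireEEDdKO, with 28338 to 30161 genes detected per library. Across genes, correlations of log2 values were 0.935 to 0.969 between EEDcKO libraries, 0.954 to 0.971 between AireEEDdKO libraries and 0.902 to 0.971 between the groups. AireEEDdKO replicate 3 was closer to EEDcKO replicate 4 (r = 0.971) than to the libraries of its own group (r = 0.954 and 0.960). Epithelial transcripts were high in every library. Epcam, the adhesion molecule used in the sort, was at 162, 187, 178 and 198 CPM (counts per 1000000 reads of the TMM-scaled library size) in EEDcKO replicates 1 to 4 and at 201, 178 and 194 CPM in AireEEDdKO replicates 1 to 3. All values below follow this order of replicates.

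A total of 1071 genes, 5.3% of those tested, were called, meaning a Benjamini-Hochberg adjusted p under 0.05 in edgeR's quasi-likelihood test and a change of at least 2-fold. Of these, 697 (3.45%) were higher and 374 (1.85%) lower in AireEEDdKO, and the median log2 fold change of all tested genes was -0.02. Protein-coding genes made up 566 of the genes called higher and 320 of those called lower. In 3065 genes, 15.2% of those tested, the CPM of the 2 groups did not overlap, which held for 673 of the called genes. The number of calls rested on the spread shared by all 24 libraries of the table. When only the 7 compared libraries were fitted, 40 of 18038 tested genes (0.222%) were called, 18 higher and 22 lower, and 3278 had an unadjusted p under 0.05. All 40 were also called in the fit over all groups. When EEDcKO replicates 1 and 2 were left out, so that the compared libraries were aged 4 to 6 days, 437 genes were called. With 1 library left out, the count ran from 377 without AireEEDdKO replicate 1 to 1507 without AireEEDdKO replicate 3. Because the cells were measured in bulk, fewer cells of a type and less RNA per cell cannot be told apart here.

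**Figure D1:**
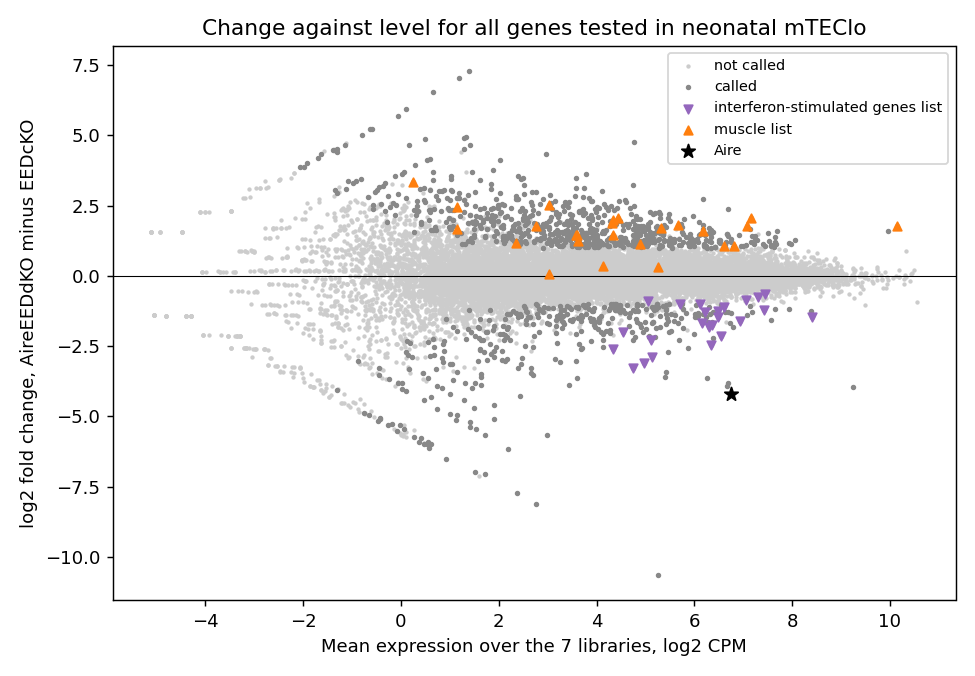
Log2 fold change of AireEEDdKO over EEDcKO in neonatal mTEClo (vertical axis) against mean expression over the 7 libraries in log2 CPM (horizontal axis), 1 point per tested gene. Aire (star, -4.19) and the interferon-stimulated genes (downward triangles, all 24 below 0) lie under the line at 0, and the muscle genes (upward triangles, all 25 tested above 0) over it.

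The targeted gene followed the labels. Aire (ENSMUSG00000000731, GRCm38 chromosome 10, 78030022 to 78043610, minus strand) was at 123, 232, 309 and 60.1 CPM in EEDcKO and at 16.3, 10.8 and 3.44 CPM in AireEEDdKO. The groups did not overlap, although EEDcKO replicate 4 was far below the other 3, and Ctrl mTEClo were at 322, 324 and 330 CPM. The log2 fold change was -4.19 (SE 0.53, edgeR adjusted p 6.8e-05), and in the fit of the 7 libraries alone the adjusted p was 0.058. Which part of Aire the knockout allele lacks is not given in the sources used here, and reads were counted over the whole gene, so the remaining 3.44 to 16.3 CPM say nothing of protein.

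Eed itself did not differ between the genotypes beyond their spread. It was at 15.7, 14.3, 14 and 16.3 CPM in EEDcKO and 15.3, 14.9 and 14.9 CPM in AireEEDdKO, both below the 23.1 to 25.7 CPM of Ctrl mTEClo (edgeR adjusted p 1 between the 2 genotypes). Reads were counted over the whole gene, so the level of the deleted part is not known from these values. Cdkn2a, a cell cycle inhibitor locus that PRC2 silences in many tissues, was at 11.7, 14.6, 15.7 and 15.0 CPM in EEDcKO and 17.5, 14.3 and 14.2 CPM in AireEEDdKO, overlapping groups that both stood above Ctrl (0.558 to 2.35 CPM). None of the 12 PRC2 subunit genes and none of the 10 genes for CDK inhibitors and D cyclins was called. Jarid2, an accessory subunit, and Mtf2, a Polycomb-like accessory subunit, passed the adjusted p threshold with changes under 2-fold (0.56 and -0.54 on the log2 scale). Of 25 tested Hox genes, classical Polycomb targets, 1 was called: Hoxc11 rose from 1.00, 1.43, 2.54 and 0.501 CPM to 9.70, 7.53 and 2.76 CPM (log2 fold change 2.18, SE 0.50, edgeR adjusted p 0.0093), and the list's median was -0.36. Hoxc11 was not called with the libraries aged 4 to 6 days (adjusted p 0.088).

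Interferon-stimulated genes fell together. Their list, like the other gene lists used here, was chosen with earlier results of these data known, so its counts are a description. Of 24 such genes, all tested, 19 were called lower and none higher in AireEEDdKO (background 1.85% lower). The median log2 fold change was -1.54, and all 24 values were below 0. The groups did not overlap in 21 of these genes (background 15.2%). Their summed expression was 2383, 2682, 3509 and 3246 CPM in EEDcKO and 1023, 1059 and 1373 CPM in AireEEDdKO. Every AireEEDdKO library was thus below every EEDcKO library, and also below the 2539 to 2609 CPM of Ctrl mTEClo. The count stayed between 18 and 20 when any 1 library was left out, was 21 with the libraries aged 4 to 6 days and 10 when only the 7 compared libraries were fitted.

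The promoters of 4 of these genes are shown because they carry the sequence element through which interferon-activated factors bind. Each is the 250 bases before a RefSeq transcript start (GRCm38.p6), written 5′ to 3′ on the gene's strand, with capitals on every match to GAAA, any 2 bases, GAAA, searched on both strands and here read from the other strand as TTTC, any 2 bases, TTTC.
Rsad2 promoter, chr12:26456453-26456702, minus strand: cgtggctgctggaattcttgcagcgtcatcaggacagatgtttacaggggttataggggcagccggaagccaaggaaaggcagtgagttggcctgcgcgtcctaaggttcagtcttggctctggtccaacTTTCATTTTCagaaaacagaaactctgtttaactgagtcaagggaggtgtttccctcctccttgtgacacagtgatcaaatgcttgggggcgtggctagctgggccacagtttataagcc
Ifit1 promoter, chr19:34640639-34640888, plus strand: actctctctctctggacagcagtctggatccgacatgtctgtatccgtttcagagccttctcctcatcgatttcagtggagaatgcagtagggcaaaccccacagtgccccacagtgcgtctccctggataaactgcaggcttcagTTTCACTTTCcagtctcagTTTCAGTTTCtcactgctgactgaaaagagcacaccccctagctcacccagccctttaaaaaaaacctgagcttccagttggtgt
Stat2 promoter, chr10:128270248-128270497, plus strand: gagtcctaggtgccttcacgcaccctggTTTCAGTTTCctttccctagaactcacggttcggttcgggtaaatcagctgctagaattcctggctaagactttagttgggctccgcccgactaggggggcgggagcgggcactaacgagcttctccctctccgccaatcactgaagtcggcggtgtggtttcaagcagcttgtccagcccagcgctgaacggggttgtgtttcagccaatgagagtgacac
Ifit3 promoter, chr19:34583279-34583528, plus strand: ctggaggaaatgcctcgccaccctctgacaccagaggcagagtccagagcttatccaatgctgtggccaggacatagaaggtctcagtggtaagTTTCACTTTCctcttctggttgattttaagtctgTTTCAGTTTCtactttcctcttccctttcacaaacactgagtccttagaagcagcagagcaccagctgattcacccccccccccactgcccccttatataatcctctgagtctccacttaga
Rsad2 and Stat2 hold 1 match each, and Ifit1 and Ifit3 hold 2 each. Counted over windows from 250 bases before to 50 after the start, the element was present in 1131 of 32851 promoters (3.44%), in 47 of 320 promoters of genes called lower (14.7%) and in 14 of 570 promoters of genes called higher (2.46%). Among promoters of interferon-stimulated genes it was present in 10 of 20 (50%). Counted by gene, 17 of these 24 genes matched a promoter and 10 of the 17 held the element (58.8%). None of 12 called muscle genes did, and the share among tested genes with a promoter was 503 of 13511 (3.72%). A match is a run of letters and not a measured binding site.

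Rsad2 (ENSMUSG00000020641), which encodes the antiviral enzyme viperin, had the smallest p-value of the group. It was at 47.1, 44.5, 79.5 and 53.1 CPM in EEDcKO and at 7.20, 7.33 and 8.27 CPM in AireEEDdKO. The 3 AireEEDdKO values lay close together and far under the lowest EEDcKO value. The log2 fold change was -2.88 (SE 0.25, edgeR adjusted p 1.2e-06), and the call held with the 7 libraries alone (adjusted p 0.0060). Ifit1, a binder of foreign RNA ends, went from 114, 118, 147 and 123 CPM to 16.6, 17.9 and 33.5 CPM (log2 fold change -2.46, SE 0.28, edgeR adjusted p 3.3e-05). Its groups were again apart, with AireEEDdKO replicate 3 the highest of the 3. Oasl2, a 2′-5′-oligoadenylate synthetase-like protein, went from 446, 431, 498 and 476 CPM to 157, 162 and 189 CPM (log2 fold change -1.45, SE 0.15, edgeR adjusted p 9.7e-06). Usp18, which removes ISG15 from proteins and dampens the receptor, went from 106, 128, 133 and 108 CPM to 48.2, 49.7 and 51.4 CPM (log2 fold change -1.25, SE 0.15, edgeR adjusted p 4.4e-05). In Rsad2, Oasl2 and Usp18 the AireEEDdKO libraries lay close together, while Ifit1 spread more.

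Ifit2 fell by 2.61, Ifit3 by 3.11 and Oas2 by 3.29 on the log2 scale, all with separate groups. Ifit3 and the near-identical Ifit3b (fell by 3.53) share sequence, and reads could be split between them. Ifi44, Xaf1 and Rtp4 fell by 2.15, 1.76 and 1.82, and each was called with the 7 libraries alone. Mx1, Mx2, Gbp3, Zbp1, Isg15, Bst2 and Ifih1 made up the rest of the called genes with Irf7 and Stat2, of which Bst2 was the closest to the 2-fold limit (log2 fold change -1.01) and was called in 3 of the 7 fits that left out 1 library. In Zbp1, a nucleic acid sensor, the groups overlapped, since EEDcKO replicate 1 (54.1 CPM) was below AireEEDdKO replicate 3 (54.4 CPM).

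Upstream members of the interferon pathway were examined in groups put together after the fall of its targets was seen, so they are a description. No ligand could be tested. Over 21 interferon genes of types I, II and III, the summed counts were 9, 10, 9 and 16 in EEDcKO and 13, 10 and 15 in AireEEDdKO, and without Ifnk, the keratinocyte-type interferon, 4, 8, 4 and 7 against 4, 2 and 5. At this depth ligand reads were near 0 in all 7 libraries and no difference was detectable. The receptor genes were measured well. Ifnar1, the first chain of the type I receptor, was at 134, 148, 176 and 160 CPM in EEDcKO and 176, 175 and 163 CPM in AireEEDdKO (log2 fold change 0.15, SE 0.09, edgeR adjusted p 0.35). Ifnar2, its partner, had a log2 fold change of -0.03, Ifnlr1, the type III receptor, of -0.02, and the kinases Jak1 and Tyk2 of 0.02 and 0.26, and none was called. Ifngr2, a type II receptor chain, passed the adjusted p threshold with 0.63 on the log2 scale, under 2-fold.

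Transcription factors of the pathway fell as well. Stat2 went from 158, 208, 276 and 266 CPM to 85.4, 91.4 and 114 CPM (log2 fold change -1.23, SE 0.17, edgeR adjusted p 0.00017). Irf7, the factor that amplifies type I interferon, went from 134, 154, 209 and 194 CPM to 53.2, 47.6 and 69.3 CPM (log2 fold change -1.61, SE 0.23, edgeR adjusted p 0.00028). Groups were apart in both. Irf9, the DNA-binding partner of STAT2 (-0.85, edgeR adjusted p 0.00047), passed the p threshold but not the 2-fold limit. Of 12 receptor and JAK-STAT genes 1, Stat2, was called. Of 13 tested nucleic acid sensors and adaptors 4 were called lower (Ifih1, Dhx58, Tlr3 and Irf7) and 2 higher (background 1.85% lower and 3.45% higher). The 2 were Tlr9, an endosomal DNA sensor, which was at 14.7, 14.3, 16.7 and 6.01 CPM in EEDcKO and 76.0, 57.6 and 23.4 CPM in AireEEDdKO (log2 fold change 2.01, SE 0.34, edgeR adjusted p 0.00092), and Irf5 (log2 fold change 1.07), which was not called with the libraries aged 4 to 6 days (adjusted p 0.18). The adaptors Mavs and Myd88 and the kinase Tbk1 were not called (log2 fold changes between -0.20 and 0.00).

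Of 21 interferon-inducible GTPases and oligoadenylate synthetases, also grouped after their values were seen, 15 were called lower and none higher (background 1.85% lower). Irgm1, a regulator of autophagy and membrane defence, went from 144, 141, 174 and 183 CPM to 36.0, 41.1 and 58.6 CPM (log2 fold change -1.82, SE 0.22, edgeR adjusted p 4.6e-05). Iigp1 went from 231, 243, 297 and 291 CPM to 91.7, 85.3 and 94.8 CPM (-1.55). Oas1a and Oas1b fell by 1.63 and 1.89, with the reserve that the Oas1 genes are close copies of each other and that Oas1b is annotated as a polymorphic pseudogene. Gbp4, Gbp5, Gbp8 and Gbp9, guanylate-binding proteins, were not called (log2 fold changes -0.88 to 0.29), so calls were not made throughout that family. Of the 40 genes called with the 7 libraries alone, 16 belonged to the interferon-stimulated list or these added groups.

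**Figure D2:**
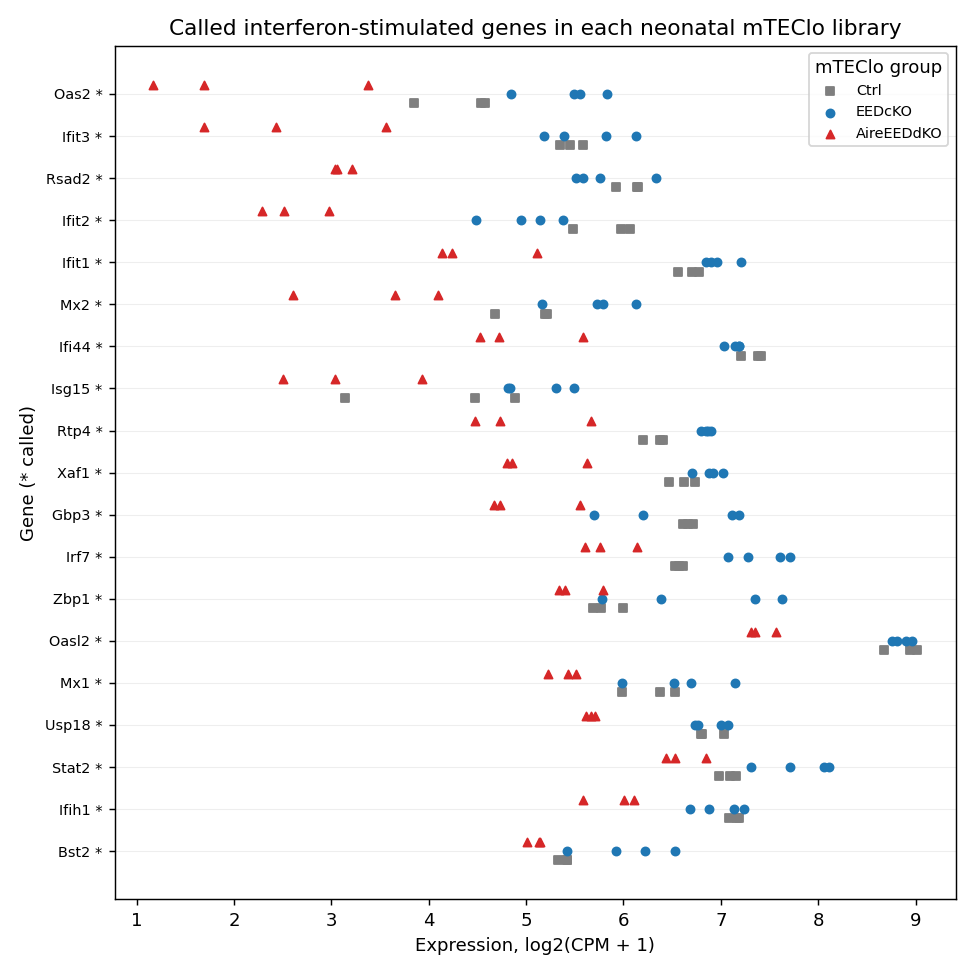
Expression of the 19 called interferon-stimulated genes in each neonatal mTEClo library as log2(CPM + 1), with Ctrl (squares, n = 3), EEDcKO (circles, n = 4) and AireEEDdKO (triangles, n = 3) and 1 row of points per gene. The triangles lie left of all circles in 18 of the 19 genes, Zbp1 being the exception.

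Muscle genes moved the other way. Of 26 listed muscle genes 25 were tested, 16 were called higher and none lower (background 3.45% higher), and the median log2 fold change was 1.67. The groups did not overlap in 15 of these genes (background 15.2%). Their summed expression was 627, 1173, 1053 and 1369 CPM in EEDcKO and 4196, 2560 and 3175 CPM in AireEEDdKO, so every AireEEDdKO library was above every EEDcKO library. Ctrl mTEClo lay between the groups at 1283 to 2168 CPM, with the lowest Ctrl library below the highest EEDcKO library. The count of called genes was less steady than that of the interferon group: 1, Ttn, with the 7 libraries alone, 6 with the libraries aged 4 to 6 days, and 8 without AireEEDdKO replicate 1, the library with the highest muscle sum.

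Among regulators, Myog (myogenin), which drives muscle differentiation, was at 13.0, 40.6, 45.5 and 54.8 CPM in EEDcKO and 156, 70.4 and 125 CPM in AireEEDdKO (log2 fold change 1.59, SE 0.36, edgeR adjusted p 0.0076). The groups did not overlap, and EEDcKO replicate 1 was the lowest. With the libraries aged 4 to 6 days Myog was not called (adjusted p 0.075), nor was Myf6 (adjusted p 0.13). Myf6, a late myogenic factor, was called from low levels (at most 0.423 CPM in EEDcKO, and 4.38, 1.63 and 1.61 CPM in AireEEDdKO). The earlier factors Myf5 (log2 fold change 2.47, adjusted p 0.052) and Myod1 (1.67, adjusted p 0.21) were not, at levels under 7 CPM. Mamstr, a coactivator of MEF2 factors that was picked after its values were seen, went from 13.7, 15.3, 23.7 and 21.3 CPM to 69.1, 52.1 and 44.1 CPM (log2 fold change 1.55, SE 0.20, edgeR adjusted p 0.00012) and was called with the 7 libraries alone.

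Of the sarcomere genes, Ttn (titin, the spring of the sarcomere; ENSMUSG00000051747, chromosome 2, 76703980 to 76982547) was at 338, 561, 648 and 665 CPM in EEDcKO and 2326, 1740 and 1657 CPM in AireEEDdKO (log2 fold change 1.79, SE 0.32, edgeR adjusted p 0.0016). The groups were well apart, and Ctrl mTEClo were at 982 to 1836 CPM, which overlapped AireEEDdKO. Neb (nebulin, which lines the thin filament) went from 47.4, 68.4, 25.6 and 98.9 CPM to 385, 125 and 244 CPM (log2 fold change 2.06, SE 0.36, edgeR adjusted p 0.0012). Tnnt3, Klhl41 and Mylpf rose by 2.54, 2.00 and 1.69 on the log2 scale, and in Klhl41 and Mylpf the groups overlapped through EEDcKO replicate 4. Neither was called with the libraries aged 4 to 6 days (adjusted p 0.054 for Klhl41 and 0.10 for Mylpf). Myh3 and Myh8, developmental myosins, and Actc1, cardiac actin, were not called (log2 fold changes 0.05, 1.13 and 1.07).

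The nicotinic acetylcholine receptor of muscle, the autoantigen of myasthenia gravis, had 3 subunits on the list and all 3 rose. Chrng, the fetal gamma subunit, was at 5.68, 8.55, 9.94 and 12.5 CPM in EEDcKO and 55.4, 27.3 and 33.5 CPM in AireEEDdKO (log2 fold change 2.04, SE 0.26, edgeR adjusted p 8.6e-05). The lowest AireEEDdKO library was above the highest EEDcKO library. Chrna1 went from 4.34, 12.5, 10.6 and 9.26 CPM to 48.2, 17.7 and 37.7 CPM (log2 fold change 1.89) and Chrnd from 8.35, 11.4, 12.5 and 13.8 CPM to 46.9, 22.4 and 25.9 CPM (1.44). Ryr1, the calcium release channel, rose by 1.76, and Scn4a, the muscle sodium channel, by 1.73, and the call of Ryr1 was lost with the libraries aged 4 to 6 days (adjusted p 0.082). A second group of myogenic and sarcomere genes was put together after their values were seen and is partly shared with the list. Of its 20 tested genes 12 were called higher and none lower (background 3.45% higher).

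**Figure D3:**
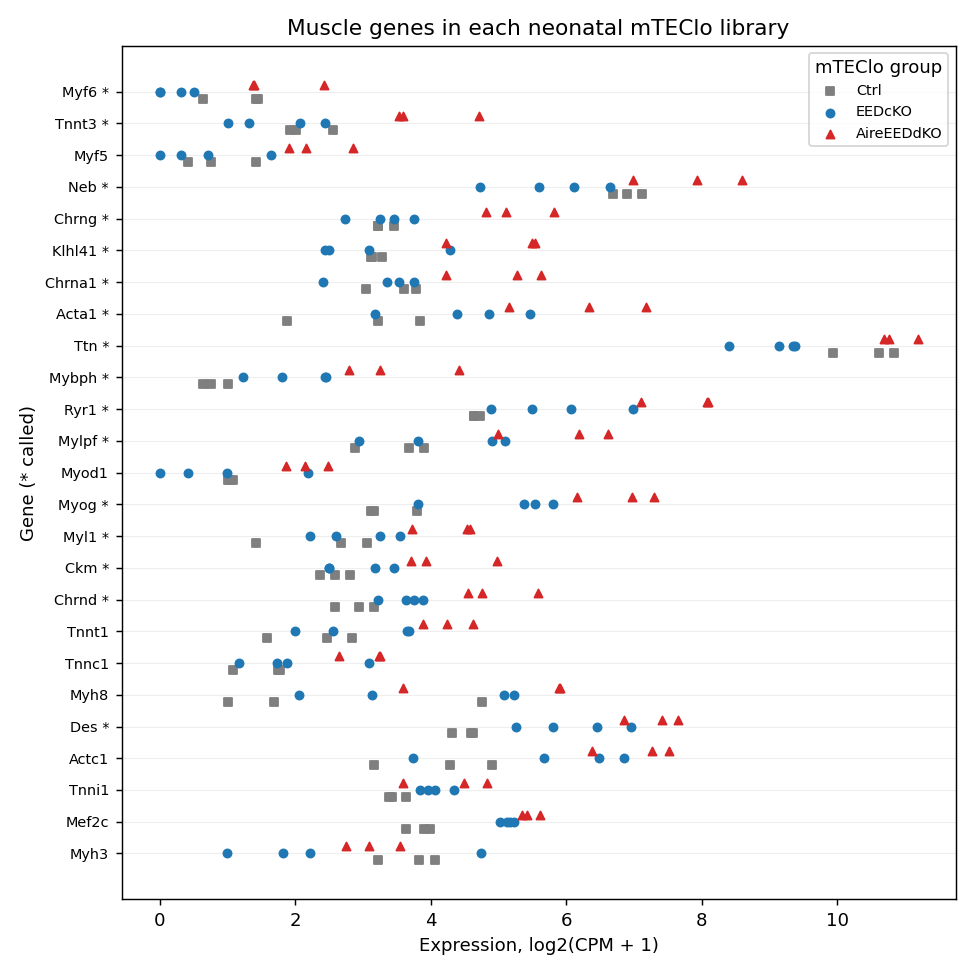
Expression of the 25 tested muscle genes in each neonatal mTEClo library as log2(CPM + 1), with Ctrl (squares, n = 3), EEDcKO (circles, n = 4) and AireEEDdKO (triangles, n = 3), an asterisk marking the 16 called genes. The triangles lie right of all circles in 15 genes, and the spread within a group is wider than for the interferon-stimulated genes.

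Genes that depend on Aire in neonatal mTEChi had a smaller median fall in mTEClo than the interferon-stimulated list, with which they overlap. Genes called lower in neonatal mTEChi of AireKO against Ctrl mice, libraries that share none with the comparison, numbered 2593. Of the 24 interferon-stimulated genes, 14 were among them, and the list's median in that mTEChi comparison was -1.20. In mTEClo of AireEEDdKO against EEDcKO, 220 of the 2593 genes (8.48%) were called lower, beside 1.85% of all tested genes. Another 49 (1.89%) were called higher, beside 3.45%. The median log2 fold change of the set was -0.39, beside -0.02 for all genes. The same genes gave 1215 lower (46.9%, beside 8.36% of all tested genes) and a median of -1.48 when AireEEDdKO and EEDcKO were compared in mTEChi. They took 6.05%, 6.05%, 5.63% and 5.16% of all counts in mTEClo EEDcKO and 4.07%, 4.50% and 4.96% in AireEEDdKO. The groups did not overlap in this share, with AireEEDdKO replicate 3 the nearest to EEDcKO. In Ctrl mTEClo, where Aire is intact, the share was 4.08%, 4.02% and 4.11%, so AireEEDdKO was not below Ctrl by this measure. By the mean log2 CPM of the set it was: 2.83, 2.78 and 2.59 in Ctrl and 2.50, 2.52 and 2.58 in AireEEDdKO, beside 2.74, 2.92, 2.94 and 2.61 in EEDcKO. Seen from the other side, 220 of the 374 genes called lower in mTEClo (58.8%) were in this set, which holds 12.8% of all tested genes. Of the genes called lower in adult mTEClo of AireKO against WT mice, a table fitted apart, 659 were tested. Here 81 (12.3%) were called lower and 19 (2.88%) higher, with a median of -0.31. Among all tested genes the shares were 1.85% and 3.45%.

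Of 15 tested tissue antigens long known to depend on Aire, 1 was called. Crabp1, a retinoic acid-binding protein, went from 8.68, 10.7, 18.0 and 3.25 CPM to 1.56, 2.24 and 1.38 CPM (log2 fold change -2.52, SE 0.52, edgeR adjusted p 0.0047). Groups did not overlap, though EEDcKO replicate 4, the one with the lowest Aire, was the nearest. The list's median was -0.02 in mTEClo, where many of its genes had few reads: Csn1s2a, a casein, was at 0, 3.92, 5.5 and 0.250 CPM in EEDcKO and at 0 in all 3 AireEEDdKO libraries, and its adjusted p was 0.070. In mTEChi 10 of the 15 were called lower, with a median of -3.25. Csn2, another casein, gave overlapping groups (39.1, 63.1, 71.9 and 14.5 CPM against 142, 114 and 29.8 CPM).

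Mucin genes were among the largest falls. Muc5b, a gel-forming mucin of airway goblet cells, was at 1228, 1921, 516 and 359 CPM in EEDcKO and 12.8, 161 and 19.1 CPM in AireEEDdKO (log2 fold change -3.94, SE 0.72, edgeR adjusted p 0.0017). The younger EEDcKO replicates 1 and 2 were the highest, and with the libraries aged 4 to 6 days the value was -2.73 (adjusted p 0.030). Muc5ac, its neighbour on chromosome 7 (141788972 to 141819231), went from 35.1, 18.5, 189 and 38.8 CPM to 3.44, 11.0 and 4.82 CPM (log2 fold change -3.41, SE 0.70, edgeR adjusted p 0.0040). Muc4, a membrane mucin, also fell (-2.01) but was not called with the libraries aged 4 to 6 days (adjusted p 0.41), while the other 13 tested goblet genes were not called and the list's summed level was 2116 to 3364 CPM in EEDcKO against 1687 to 2358 CPM in AireEEDdKO.

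The other leading falls were of mixed kind. Scn1a, a neuronal sodium channel, was at 270, 188, 28.6 and 21.5 CPM in EEDcKO and 3.13, 10.6 and 15.6 CPM in AireEEDdKO (log2 fold change -3.64), but its EEDcKO level split by age and the value was -1.32 with an adjusted p of 0.21 with the libraries aged 4 to 6 days. The long noncoding RNA 8030451O07Rik split the same way (32.7, 24.2, 10.2 and 9.51 CPM against 2.50, 1.02 and 3.44 CPM; adjusted p 0.055 with the older libraries). Phex, a peptidase of bone and tooth on chromosome X, fell by 3.06. Ifi204 and Apol9a, both known to respond to interferon though on none of the lists, fell by 3.63 and 3.26, and Gm5970, a processed pseudogene whose reads may belong to a related gene, by 2.95. Together with Aire, Oas2, Ifit3 and Ifit3b these were the 12 largest falls among genes that passed the naming rule.

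Among genes that met the naming rule, which sets a minimum level in each group (10 CPM where higher, over 3 counts on average where lower), the 12 largest rises mixed secreted, neural and muscle genes. Pla1a, a phospholipase, was at 2.00, 1.43, 4.23 and 1.00 CPM in EEDcKO and 43.2, 37.9 and 6.66 CPM in AireEEDdKO (log2 fold change 3.63, SE 0.54, edgeR adjusted p 0.00038). AireEEDdKO replicate 3 was the lowest of its group here, as it was in 11 of the 12 largest rises. The exception was Sftpa1, a lung surfactant protein, at 0.668, 0, 6.13 and 1.00 CPM against 12.5, 37.9 and 25.9 CPM (log2 fold change 3.48, SE 0.56, edgeR adjusted p 0.00063). Ddc, which makes dopamine and serotonin from their precursors, went from 2.00, 5.70, 2.33 and 4.76 CPM to 39.4, 21.8 and 17.0 CPM (log2 fold change 2.82, SE 0.41, edgeR adjusted p 0.00035) and was called with the 7 libraries alone. Gm10165, a long noncoding RNA, Resp18, a neuroendocrine secretory protein, Vmo1, Prg2, an eosinophil granule protein, and Gucy2c, the guanylin receptor of the intestine, rose by 3.24, 3.13, 2.99, 2.83 and 2.75 on the log2 scale. The muscle genes Myot (myotilin) and Stac rose by 3.14 and 2.97, 1600012P17Rik by 3.00 and Epha6 by 2.91. Outside that rule, and picked after its values were seen, the processed pseudogene Gm9855 was at 0 in all 4 EEDcKO and all 3 Ctrl libraries and at 5.01, 5.90 and 5.05 CPM in AireEEDdKO (edgeR adjusted p 6.0e-05), with the reserve that its reads may belong to a related gene.

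Most genes that rose were more abundant in the mature fraction of Ctrl mice. Of the 697 genes called higher, 469 (67.3%) were also higher in Ctrl mTEChi than in Ctrl mTEClo and 0 were lower, where 13.8% of all tested genes were higher and 6.92% lower. None of the Ctrl libraries is part of the comparison. Of the 374 genes called lower, 86 (23%) were higher and 63 (16.8%) lower in Ctrl mTEChi. Seen from the maturation side, the 469 genes were 16.9% of the 2780 genes higher in Ctrl mTEChi. Of the 125 rises that stayed called whichever library was left out and met the naming rule's other limits, 94 were higher in Ctrl mTEChi and 0 lower.

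**Figure D4:**
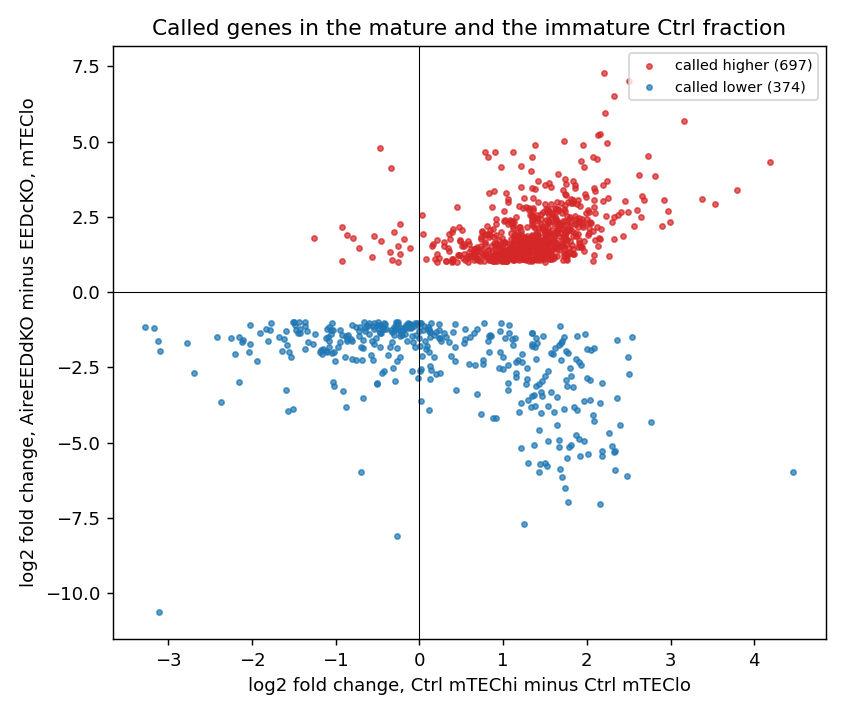
Log2 fold change of AireEEDdKO over EEDcKO in neonatal mTEClo (vertical axis) against that of mTEChi over mTEClo in Ctrl mice (horizontal axis) for the 697 genes called higher and the 374 called lower. Most of the genes called higher lie right of 0, with 469 of them called higher in Ctrl mTEChi.

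Markers of maturation were uneven between the AireEEDdKO libraries. Cd80, a costimulatory ligand that rises on mature mTECs, was at 11.7, 24.6, 33.6 and 20.02 CPM in EEDcKO and 98.9, 77.2 and 22.96 CPM in AireEEDdKO (log2 fold change 1.53, SE 0.36, edgeR adjusted p 0.010). Replicates 1 and 2 were above every EEDcKO library and replicate 3 was not. Cd80 was not called with the libraries aged 4 to 6 days (1.29, adjusted p 0.11), with voom (adjusted p 0.11) or with the 7 libraries alone (adjusted p 0.17). The same split was seen in Icosl, ligand of ICOS on T cells (78.5, 112, 174 and 73.3 CPM against 480, 382 and 140 CPM, log2 fold change 1.60), and in H2-Ob, which tunes peptide loading (8.35, 9.26, 21.4 and 12.8 CPM against 70.7, 56.8 and 13.1 CPM, log2 fold change 1.80). These were the 3 called of 16 genes for antigen presentation and costimulation (background 5.3% called either way). With the libraries aged 4 to 6 days Icosl alone was called (adjusted p 0.080 for H2-Ob). H2-Aa, the MHC class II chain used in the gate, was at 366, 359, 341 and 393 CPM against 482, 364 and 326 CPM and did not pass the test (log2 fold change 0.10, SE 0.25, edgeR adjusted p 0.86). Without AireEEDdKO replicate 3, 1161 genes were called higher and 346 lower. The part of the sort gate or of cell maturation in these differences was not tested.

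Fezf2, a second driver of tissue antigens in mTECs, was at 31.7, 65.6, 156 and 90.6 CPM in EEDcKO and 234, 188 and 124 CPM in AireEEDdKO (log2 fold change 1.06, SE 0.32, edgeR adjusted p 0.040). The groups overlapped, it was called in 2 of the 7 fits that left out 1 library, and with the libraries aged 4 to 6 days the value was 0.56 (adjusted p 0.38). Foxn1, the master factor of thymic epithelium, was at 103, 184, 133 and 92.6 CPM against 242, 186 and 156 CPM (log2 fold change 0.60, adjusted p 0.058). Tnfrsf11b, the decoy receptor that restrains RANK signalling, rose by 1.27 on the log2 scale. It was the 1 called of 16 genes of the RANK, CD40 and noncanonical NF-kB list (background 5.3% called either way). With the libraries aged 4 to 6 days it was not called (adjusted p 0.17). Ccl21a, a chemokine of immature mTECs, was level at 15.7, 15.3, 18.4 and 21.3 CPM against 21.0, 16.7 and 17.7 CPM (log2 fold change 0.05, SE 0.17), and none of 14 genes of immature and progenitor mTECs and none of 11 chemokine genes was called.

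Cell division genes were lower in AireEEDdKO. Of 28 such genes 7 were called lower and none higher (background 1.85% lower). In 27 of the 28 the log2 fold change was below 0, and the median was -0.85. The groups did not overlap in 17 of these genes (background 15.2%). The summed level was 1624, 2320, 1202 and 1632 CPM in EEDcKO, 969, 1011 and 982 CPM in AireEEDdKO and 2850 to 3058 CPM in Ctrl mTEClo. Kif11, the motor that separates spindle poles, went from 51.4, 76.3, 32.4 and 41.1 CPM to 17.5, 15.5 and 14.7 CPM (log2 fold change -1.65, SE 0.33, edgeR adjusted p 0.0037). The youngest EEDcKO library, replicate 2, was the highest of all 7. Top2a, the topoisomerase of dividing cells, Cenpf and Cdk1 fell by 1.30, 1.31 and 1.01, and Ccnb1, Bub1 and Aurkb completed the called genes. The replication licensing genes Mcm2 to Mcm7 were not called, with log2 fold changes of -0.63 to 0.09. With the libraries aged 4 to 6 days none of the 28 genes was called, and none with the 7 libraries alone, where 7 were called with all libraries.

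The remaining mimetic cell lists showed few calls (background 5.3% called either way). None of 13 tuft and 11 ionocyte genes was called. Of 14 ciliated genes 1 fell (Dynlrb2), and of 18 keratinocyte genes 1 rose (Flg, filaggrin, log2 fold change 1.64), and neither was called with the libraries aged 4 to 6 days (adjusted p 0.19 and 0.34). Of 13 microfold genes 2 rose, Icosl and Tnfrsf11b, which other lists also hold. The endocrine list had calls in both directions among 16 genes. Insm1, a neuroendocrine transcription factor, was at 9.02, 18.9, 38.1 and 6.76 CPM in EEDcKO and 97.6, 66.4 and 23.2 CPM in AireEEDdKO (log2 fold change 1.72, edgeR adjusted p 0.011), and Ret rose by 1.29. Chga, the granule protein chromogranin A, went from 216, 304, 10.4 and 151 CPM to 22.2, 11.6 and 3.21 CPM (log2 fold change -3.82, SE 0.77, edgeR adjusted p 0.0035). EEDcKO replicate 3 was within the AireEEDdKO range, so the groups overlapped. Sst and Pax6 were called lower. Of these 5 endocrine calls, Insm1, Chga and Pax6 were lost with the libraries aged 4 to 6 days (adjusted p 0.13, 0.063 and 0.071). Of 17 enterocyte genes Reg3b, Saa1 and Saa3, secreted antimicrobial and acute-phase proteins, were called lower, from at most 16.9, 7.61 and 11.4 CPM in EEDcKO to under 1 CPM in AireEEDdKO, and Cdhr5 higher (1.14, adjusted p 0.26 with the libraries aged 4 to 6 days).

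**Figure D5:**
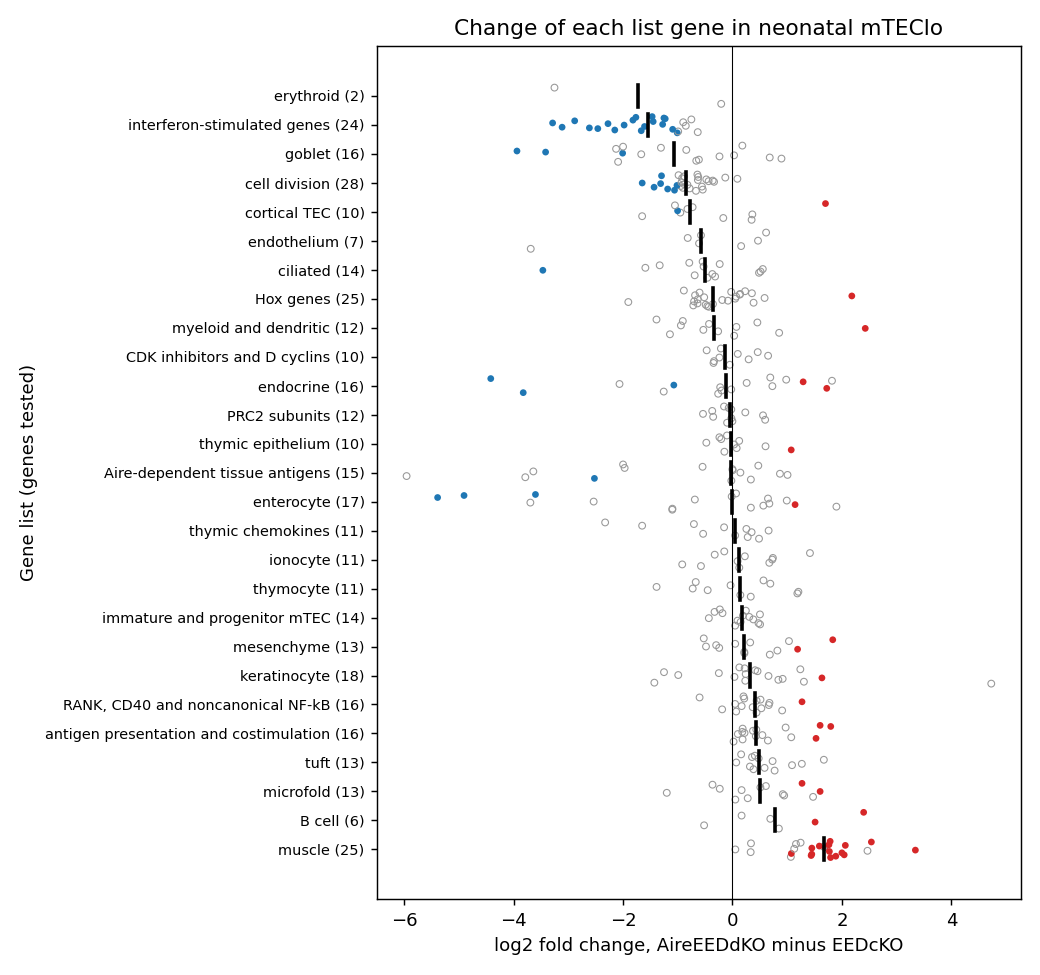
Log2 fold change of AireEEDdKO over EEDcKO for each tested gene of the 27 lists (points, filled where called), with the list's median as a bar and the number of genes tested in brackets. The muscle list (median 1.67) and the interferon-stimulated list (median -1.54) have the largest medians among lists of more than 2 genes.

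Summed transcripts of other cell types overlapped between the groups, except the erythroid ones. Summed levels in EEDcKO and AireEEDdKO were 42.8 to 181 and 64.3 to 224 CPM for 13 myeloid and dendritic markers, 9.26 to 31.1 and 22.5 to 94.5 CPM for 6 B cell markers, 98.3 to 182 and 127 to 176 CPM for 16 thymocyte markers, 33.5 to 57.1 and 38.1 to 48.2 CPM for 10 endothelial markers and 776 to 1116 and 925 to 1475 CPM for 13 mesenchymal markers. Of the B cell markers, Cd79b (3.01, 6.41, 8.67 and 3.50 CPM against 23.2, 14.7 and 10.1 CPM) and Pax5 (6.35, 7.48, 12.9 and 2.75 CPM against 61.6, 50.7 and 8.27 CPM) were called higher, the first not with the libraries aged 4 to 6 days (adjusted p 0.052). Igkc, Blk and Pou2af1, further genes of the B lineage picked after their values were seen, rose by 2.73, 2.55 and 1.92 on the log2 scale. Of the defining markers, Ms4a1 was at most 0.313 CPM and Ighm at most 7.51 CPM in all 7 libraries. Fcer1g was the called myeloid marker, while Tyrobp and Itgax stayed under 3 CPM. Cspg4 and Thy1 were called higher among mesenchymal markers. None of 11 tested thymocyte, 7 endothelial and 2 erythroid genes was called, and the summed erythroid level was 13.0 to 21.6 CPM in EEDcKO and 7.58 to 12.8 CPM in AireEEDdKO. Of 10 genes of thymic epithelium 1, the tight junction gene Cldn7, was called higher (log2 fold change 1.07). Of 10 genes of cortical thymic epithelium, which the Ly51 gate should remove, Tbata was called higher (1.70) and Kitl, the ligand of KIT, lower. Cldn7 and Kitl were not called with the libraries aged 4 to 6 days (adjusted p 0.088 and 0.58). The summed cortical level was 1238 and 1415 CPM in the younger EEDcKO replicates 1 and 2, 550 and 627 CPM in the other EEDcKO libraries and 581 to 851 CPM in AireEEDdKO. Whether cells other than mTECs took part in any result was not tested.

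The same genotypes compared in mTEChi, where no library is shared with mTEClo, gave 1007 genes higher (4.99%) and 1689 lower (8.36%). In mTEChi, EEDcKO replicate 1 was female and 6 days old, and replicates 2 and 3 were pools of both sexes at 2 to 3 days and 1 day. AireEEDdKO replicate 1 was a 4 day old pool, and replicates 2 and 3 were male, 6 and 4 days old. EEDcKO replicates 2 and 3 were thus again younger than every AireEEDdKO library. The part of age in calls shared by mTEClo and mTEChi was not tested. Of the 697 genes called higher in mTEClo, 301 (43.2%) were also called higher there, which is 29.9% of the 1007, and 14 lower. Of the 374 called lower, 199 (53.2%) were called lower there, which is 11.8% of the 1689, and 2 higher. The interferon-stimulated list gave 19 lower in mTEChi with a median of -2.16, and the muscle list 10 higher and 2 lower with a median of 1.07. Rsad2 fell by 2.88 on the log2 scale in mTEClo and by 3.54 in mTEChi, a difference that did not pass the threshold (0.66, edgeR adjusted p 0.29).

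A test of the difference of the 2 changes called 763 genes (3.78%), 518 with the higher value in mTEClo and 245 with the lower. Col2a1, a cartilage collagen and tissue antigen, rose in mTEClo (20.7, 19.95, 16.9 and 21.0 CPM against 44.4, 65.1 and 31.2 CPM, log2 fold change 1.26) and fell in mTEChi (80.2 ± 35, SD, n = 3, against 8.50 ± 4.2 CPM, n = 3, log2 fold change -3.23), a difference of 4.49 (edgeR adjusted p 0.00012). Fcer2a, the low-affinity IgE receptor, did likewise (1.22 against -1.62, a difference of 2.83, adjusted p 0.00012). With the libraries aged 4 to 6 days neither rise in mTEClo was called (1.31 with adjusted p 0.090 for Col2a1, and 0.90, under 2-fold, for Fcer2a). Gata2, a transcription factor, was level in mTEClo (8.01, 9.98, 11.0 and 8.26 CPM against 12.2, 6.92 and 9.18 CPM) and fell by 4.69 in mTEChi (45.2 ± 6.6 against 1.94 ± 1.4 CPM, SD, n = 3 each). In the other direction, Zc2hc1a, Dcn (decorin) and Lum (lumican), the last 2 matrix proteoglycans, had log2 fold changes of -0.05, -0.24 and -0.30 in mTEClo, none called, and rose by 1.22, 1.74 and 2.36 in mTEChi. Dcn in mTEClo was at 182 to 236 CPM in EEDcKO and 152 to 192 CPM in AireEEDdKO, beside 31.8 to 40.7 CPM in Ctrl. With the libraries aged 4 to 6 days, replicate 1 alone was left of the mTEChi EEDcKO group. No conclusion on genes that differ between the fractions is drawn from that fit.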

How the data were processed

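RNA-seq of sorted mTECs was analysed from 47 libraries, of which 24 were neonatal. The deposited values were raw read counts per gene. Per the labels and the study's methods, the authors trimmed reads with fastp 0.20.0, aligned them to GRCm38 with STAR 2.7.3a, dropped low-quality alignments with SAMtools 1.9, removed duplicates with Picard 2.21.1 and counted genes with HTSeq 0.11.2 without strand, so reads of overlapping and antisense genes cannot be told apart. The annotation release is not given in the sources used here. Symbols matched 99.6% of the neonatal gene identifiers.

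Counts of all 24 neonatal libraries in 7 groups were fitted together with edgeR 4.0.16 (R 4.3.3), using TMM factors, filterByExpr and the two-sided quasi-likelihood test. Calls needed a change of 2-fold or more with a Benjamini-Hochberg adjusted p below 0.05. The biological coefficient of variation was 19.8%. The 23 adult libraries were fitted apart. Total counts limit the precision of low genes, and the test covers the spread between libraries. The procedure was also run on simulated counts, drawn with the spread of the fit over all groups. That run cannot show whether sharing the spread over the 24 libraries changes the number of calls.

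The members and the 27 gene lists were chosen with earlier results of these data known. Besides 8 preset genes, the text names called or descriptive genes of the lists, up to 12 rises and 12 falls with the largest change among genes called in each fit without 1 library, with no overlap of groups, at least 10 CPM in the higher group, more than 3 counts on average in the lower group and an unadjusted p under 0.05 in the 7 libraries alone, and the 3 smallest p-values in each direction of the mTEClo and mTEChi difference. Alternatives were other normalization (DESeq2 1.42.0 size factors, library size), other filters, other sets of libraries, a replicate block, age or sex as terms, DESeq2, voom with group weights (limma 3.58.1), another prior count and leaving out each library. Promoter sequences are from RefSeq (GRCm38.p6).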

Additional observations from a re-analysis of the deposited data

Results flagged for a closer look

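In 4 of 97 groups of values, 1 library lay far from the others of its group by Dixon's test, and chance gives about 1 in 20. EEDcKO replicate 3 was at 6.13 CPM of Sftpa1 and at 189 CPM of Muc5ac, in both cases well above the other EEDcKO libraries. The summed CPM of the goblet list was 3364 in EEDcKO replicate 2, and that of the erythroid list was 21.6 in EEDcKO replicate 3.

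The change between AireEEDdKO and EEDcKO differed between mTEClo and mTEChi by an interaction test in edgeR for 763 genes. On the log2 scale the mTEClo change exceeded the mTEChi change by 4.49 for Col2a1, by 2.83 for Fcer2a and by 4.68 for Gata2. The difference was -1.27 for Zc2hc1a, -1.98 for Dcn and -2.66 for Lum. The cause was not tested.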

How the results depend on the processing

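Of the single-gene values recomputed, 721 kept their direction and their side of the threshold and 49 lost the call. No single-gene value changed direction. Of the summary values 107 were steady and 36 moved. Some list medians changed sign. That of the cortical list went from -0.77 to 0.27 with the libraries aged 4 to 6 days. The endocrine median went from -0.11 to 0.26 with only the groups compared. The 1071 called genes became 40 with only the groups compared, 309 with only the mTEClo libraries, 437 with the libraries aged 4 to 6 days, 475 with voom and 1619 without a minimum change, and ranged from 377 (without AireEEDdKO replicate 1) to 1507 (without AireEEDdKO replicate 3) when 1 library was left out. The 763 genes that differed between fractions became 131 with only the groups compared, 203 at 4 to 6 days, 368 with voom and 1163 without a minimum change, and ranged from 352 to 1315. At 4 to 6 days replicate 1 alone was left of the mTEChi EEDcKO group, so no conclusion is drawn from that count. Among genes that differed between fractions, the share with the higher value in mTEClo, 67.9%, was 83.0% with library size alone and 87.4% with no filter. The median of the neonatal Aire-induced genes, -0.39, was -0.24 with at least 10 counts, -0.24 at 4 to 6 days and -0.62 for the set at least 4-fold lower, and -0.45 to -0.33 without 1 library. That of the adult set, -0.31, was -1.07 for the 4-fold set and -0.35 to -0.27 without 1 library. Interferon-stimulated genes called lower numbered 10 with only the groups compared and 18 to 20 without 1 library. Called muscle genes numbered 1 with only the groups compared, 8 with only the mTEClo libraries and 6 at 4 to 6 days, and 8 to 17 without 1 library. Called cell division genes numbered 0, 3 and 0 under the same settings, 3 with voom, and 3 to 13 without 1 library. Some of these fits held fewer libraries, and the cause of the shifts was not tested.

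Same-numbered libraries of the groups did not deviate together (r = -0.12, 0.02 and -0.32), so the numbers were not taken as pairs. With a replicate block 765 genes were called, 735 differed between fractions, the medians of the Aire-induced sets were -0.40 and -0.27, and 18 interferon-stimulated, 13 muscle and 6 cell division genes were called. Without AireEEDdKO replicate 3 the share of calls that were higher was 77%, and in the fit of the 7 libraries alone it was 45.0%, beside 65.1%. Depth limits genes of few reads, such as the interferon ligands.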
